A study of Mus musculus with 24 samples.

Results

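The ion channel genes of the mammary epithelium were taken as the protein-coding genes whose mouse symbols begin with Kcn, Cacn, Gria, Grik, Clca or Clcn, or with Scn, Grin, Trpc, Trpm or Trpv and the numbering of those families, including the Scnn1 genes. This rule found 192 of 27179 genes in the count table. Trpc4ap and Trpc5os meet the rule by their symbols, although neither encodes a channel. Of the 192 genes, 141 passed the filter on low counts and were tested, and 51 did not. None of the untested genes reached a mean above 0.227 CPM (the usual depth-normalised count, here on scaled library sizes) in any cell class, and 9 had no count in any library.

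Bulk RNA-seq was done on epithelial cells of pubertal mice, sorted after ducts and terminal end buds (TEBs), at which the ductal tree grows, had been dissected apart. There were 24 libraries in 12 groups of 2. Basal cells (high CD29) were sorted from TEBs and from ducts of both mouse models. Luminal cells (low CD29) were divided by a reporter into GFP+ and GFP- cells in Elf5-rtTA-IRES-GFP mice and into YFP+ and YFP- cells in PR-cre/Rosa26-LSL-eYFP mice, again from TEBs and from ducts. Every library thus came from mice with a reporter construct. GFP is tied to an Elf5 transgene. YFP marks cells in which Cre under progesterone receptor (PR) control has acted, and their descendants. GFP+ and YFP- cells are called Elf5-lineage luminal here, and GFP- and YFP+ cells hormone-sensing luminal.

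Marker genes were measured against these names. Elf5 had 410.1 to 1656.9 CPM in the 8 Elf5-lineage libraries and 15 to 87.3 CPM in the 8 hormone-sensing libraries. Pgr had 13.2 to 73.3 CPM in Elf5-lineage and 202.3 to 634.8 CPM in hormone-sensing libraries. The libraries held 31264622 to 52495208 counts each, so a count of 3 stood for 0.057 to 0.096 CPM. One library from each of 2 luminal groups held transcripts of keratinocytes. The 8 keratinocyte markers summed to 2385.7 CPM in the second GFP- duct library and to 484.7 CPM in the second YFP- TEB library. The other 22 libraries had 6.43 to 78.0 CPM. In basal cells, TEB and duct libraries also differed in marker lists. The 10 basal markers summed to 7464.0 to 13942.6 CPM in TEBs and 29921.3 to 32372.9 CPM in ducts. The 5 adipocyte markers summed to 1.72 to 7.55 CPM in TEBs and 31.0 to 59.7 CPM in ducts, and the 7 immune markers to 4.51 to 8.98 CPM in TEBs and 15.9 to 33.2 CPM in ducts. The 6 luminal markers summed to 386.9 to 613.5 CPM in TEBs and 744.3 to 918.0 CPM in ducts, with 4 called lower in TEBs. The 4 pericyte markers summed to 18.9 to 30.5 CPM in TEBs and 28.8 to 77.7 CPM in ducts, with 3 called lower. Of 5 endothelial markers 3 were called lower in TEBs and none higher. Their sums overlapped, at 5.48 to 14.7 CPM in TEBs and 3.83 to 57.6 CPM in ducts. The 6 markers of the luminal progenitor lineage ran the other way in sum, with 292.6 to 1038.5 CPM in basal TEBs and 42.9 to 104.1 CPM in basal ducts, without overlap; 3 of them were called higher and 2 lower, none was at 0, and Elf5 overlapped at 1.02 to 19.3 CPM in TEBs and 1.48 to 29.2 CPM in ducts. Of the adipocyte markers, Adipoq was at 0 to 0.173 CPM in TEBs and at 0 in all basal duct libraries. Between the layers, the 5 fibroblast markers summed to 200.7 to 751.4 CPM in basal and 10.7 to 103.6 CPM in luminal libraries. All 5 were called higher in basal cells. Of 4 pericyte markers 3 were called higher there and 1 lower. Called higher, with none lower, were 3 of 5 endothelial, 4 of 5 tested neuron and 2 of 7 immune markers. The same held for 2 of 2 tested adipocyte and 1 of 6 skeletal muscle markers. Of 7 tested Schwann markers 3 were higher and 3 lower. The part of other cells in the results was not tested. In bulk samples, fewer cells of a type cannot be told apart from less RNA per cell.

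Ion channels let sodium, potassium, calcium or chloride cross membranes. In contractile cells, voltage-gated calcium channels and the potassium channels that oppose them set the calcium signal that drives contraction, and mammary basal cells are known as myoepithelial cells that contract in response to oxytocin. In epithelia that line a lumen, apical sodium and chloride channels together with basolateral potassium channels move salt and water. The epithelial sodium channel, built from the Scnn1 subunits, is the usual apical entry for sodium. Clca proteins are secreted or membrane-bound regulators of calcium-activated chloride conductance rather than channels themselves.

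Promoter sequences from RefSeq (build GRCm38.p6, 250 bases before to 50 after the listed start) were at hand for 144 of the 192 genes. Those of 4 genes on which the results turn are shown: Scn7a and Grik3, which were lower in basal cells of TEBs than of ducts, Trpm3, which was higher there, and Kcnn4, which marked the Elf5-lineage cells. Capitals mark CpG dinucleotides, and each sequence is written 5′ to 3′ on the gene's strand. They lie at chr2:66784861-66785160 (minus strand), chr4:125490446-125490745 (plus), chr19:22138796-22139095 (plus, the first of 2 starts listed) and chr7:24370013-24370312 (plus).
Scn7a: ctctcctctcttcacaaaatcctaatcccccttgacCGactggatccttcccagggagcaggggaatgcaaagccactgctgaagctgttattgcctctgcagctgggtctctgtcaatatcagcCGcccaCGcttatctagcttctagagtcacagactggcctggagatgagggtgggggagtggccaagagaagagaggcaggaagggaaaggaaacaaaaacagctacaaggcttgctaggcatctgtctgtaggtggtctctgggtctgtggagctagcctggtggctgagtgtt
Grik3: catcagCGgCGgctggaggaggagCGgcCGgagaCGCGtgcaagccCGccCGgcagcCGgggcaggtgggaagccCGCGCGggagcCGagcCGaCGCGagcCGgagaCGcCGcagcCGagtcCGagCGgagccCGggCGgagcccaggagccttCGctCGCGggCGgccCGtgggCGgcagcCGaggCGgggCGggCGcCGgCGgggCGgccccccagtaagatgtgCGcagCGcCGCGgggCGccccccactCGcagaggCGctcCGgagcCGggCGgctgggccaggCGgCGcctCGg
Trpm3: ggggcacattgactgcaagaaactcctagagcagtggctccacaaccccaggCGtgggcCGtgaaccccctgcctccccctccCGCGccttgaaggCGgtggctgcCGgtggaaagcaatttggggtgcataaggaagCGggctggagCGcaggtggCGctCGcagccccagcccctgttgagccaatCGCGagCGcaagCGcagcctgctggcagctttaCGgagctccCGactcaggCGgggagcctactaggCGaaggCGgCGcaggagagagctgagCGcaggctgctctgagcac
Kcnn4: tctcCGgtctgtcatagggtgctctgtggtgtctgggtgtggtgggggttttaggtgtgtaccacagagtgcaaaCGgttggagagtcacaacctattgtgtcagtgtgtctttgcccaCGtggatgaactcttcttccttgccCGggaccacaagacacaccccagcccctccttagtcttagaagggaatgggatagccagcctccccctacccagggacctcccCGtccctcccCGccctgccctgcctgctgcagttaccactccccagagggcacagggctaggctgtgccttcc
The Scn7a window held 3 CpGs and that of Grik3 held 50. Trpm3 had 21 and Kcnn4 had 6. The median was 10 CpGs over the 144 windows and 7 over the windows of 27025 genes. Both strands were searched for a TATA box (TATAAA), the AP-1 motif (TGANTCA), the CRE motif (TGACGTCA), the STAT motif (TTCNNNGAA), an E-box (CACGTG) and the CArG box, taking the first listed start of each gene. Among these 4 windows there was 1 match, CACGTG 133 bases before the start of Kcnn4, a motif found in 7.64% of the 144 windows and 7.24% of all. TGANTCA stood in 5.56% of the 144 windows and 7.93% of all. TATAAA stood in 7.64% of the 144 windows and 14.2% of all. A CArG box, the motif known from smooth muscle genes, stood in none of the 53 windows of genes higher in basal cells and in 1.57% of all.

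Summed over the 192 genes, channel transcripts made up 1506.5 to 1792.6 CPM in basal cells of TEBs and 3658.1 to 4652.4 CPM in basal cells of ducts, without overlap. In Elf5-lineage cells the sums were 1931.3 to 2035.0 CPM in TEBs and 2809.2 to 2960.7 CPM in ducts. In hormone-sensing cells they were 1681.8 to 2381.5 CPM in TEBs and 2314.7 to 4089.6 CPM in ducts, which overlapped. A few genes carried much of these sums. Scn7a, which encodes an atypical sodium channel known for sensing sodium, took 0.467 to 4.03% of the sum in basal cells of TEBs and 21.0 to 33.2% in basal cells of ducts. Clca3a2 took 6.87 to 28.3% in luminal TEB libraries and 21.3 to 53.9% in luminal duct libraries. The second GFP- duct library, one of the 2 with keratinocyte transcripts, gave both the 4089.6 CPM and the 53.9%. The next highest hormone-sensing duct library, the first GFP- one, had 2944.2 CPM and 37.2%. Without Scn7a and the Clca3 genes, basal cells still had 1483.3 to 1599.4 CPM in TEBs and 2358.5 to 2664.2 CPM in ducts, Elf5-lineage cells 1701.9 to 1853.7 CPM in TEBs and 2072.7 to 2260.7 CPM in ducts, and hormone-sensing cells 1512.7 to 1664.0 CPM in TEBs and 1657.8 to 1796.8 CPM in ducts. These sums overlapped between TEBs and ducts only in hormone-sensing cells.

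**Figure D1:**
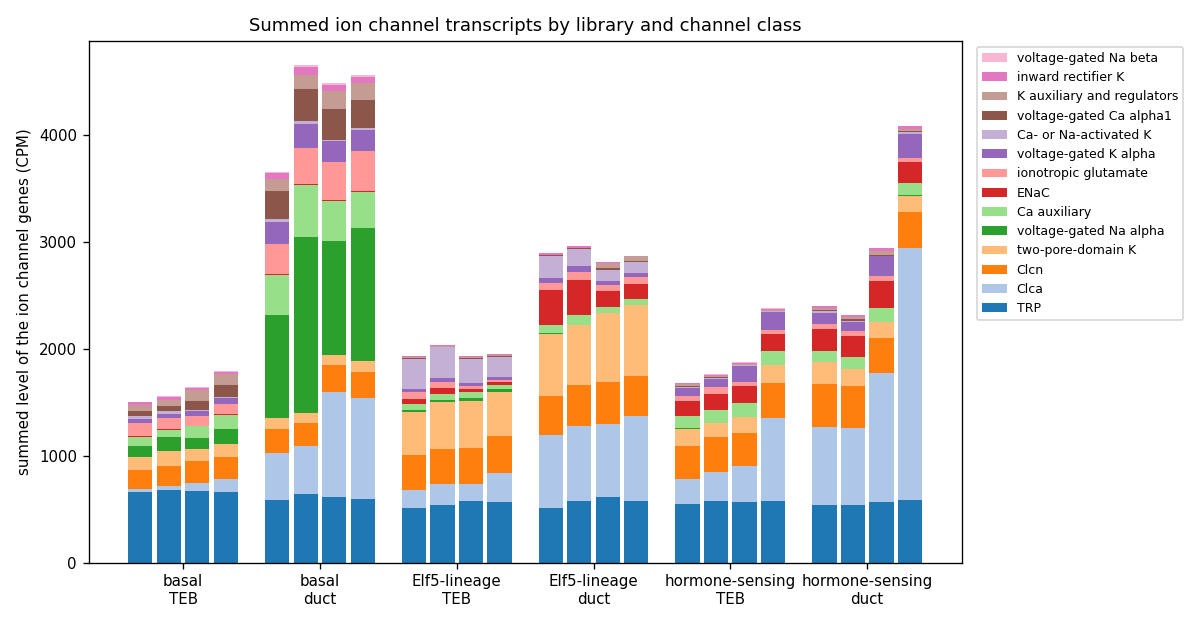
Stacked bars give the summed level (CPM) of the 192 ion channel genes in each of the 24 libraries, coloured by channel class, with TEB left of duct in basal, Elf5-lineage and hormone-sensing cells. Basal TEB libraries reach 1506.5 to 1792.6 CPM and basal duct libraries 3658.1 to 4652.4 CPM, with much of the gap in voltage-gated sodium alpha subunits and Clca genes.

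Per kilobase of exon, Trpc4ap, Kcnk1 and Trpm7 led in basal TEB cells, at 40.8, 33.6 and 27.2 CPM per kilobase. In basal duct cells Clca3a2 (154.5), Scn7a (151.7) and Clca3a1 (46.0) led. Kcnn4 (118.2), Kcnk1 (74.4) and Kcnk5 (71.4) led in Elf5-lineage TEB cells, and Clca3a2 (177.8), Kcnk5 (130.0) and Kcnk1 (75.8) in Elf5-lineage duct cells. In hormone-sensing cells Clca3a2 stood first in TEBs (92.2) and ducts (308.6), with Kcnk1 second (60.0 and 59.2). Other genes had like levels in both layers. Trpm7, a fusion of a magnesium and calcium channel with a kinase, had a lowest, median and highest level of 172.0, 192.9 and 241.1 CPM in basal cells and 131.9, 196.2 and 240.9 CPM in luminal cells, and was not called (log2 fold change 0.09, adjusted p = 0.0982). Reads of Clca3a1, Clca3a2 and Clca3b, which are close copies of each other, may have been split between them unevenly.

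Basal cells expressed many voltage-gated channel genes that were close to 0 in luminal cells. Over all tissues, 69 of the 141 tested genes were higher in basal than in luminal cells and 28 were lower, against 35.5% and 32.2% of all 18109 genes tested. The median log2 fold change was 1.09 over the 141 genes and 0.02 over all genes. By class, 6 of 8 tested calcium channel alpha1 subunits, 5 of 8 sodium channel alpha subunits and 3 of 4 sodium channel beta subunits were higher, and none of these was lower. All 3 epithelial sodium channel subunits were lower.

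Calcium channel subunits were among the genes with the largest differences between the layers. Cacna2d1, the auxiliary subunit bound by gabapentin, had a lowest, median and highest level of 25.8, 143.9 and 330.3 CPM in basal libraries and 0, 0.13 and 0.511 CPM in luminal libraries. The log2 fold change was 9.68 ± 0.23 (SE, adjusted p = 1.55e-14). Cacna1g, which forms a T-type channel opening at low voltage, had 30.0, 82.8 and 147.4 CPM in basal libraries and 0, 0.183 and 0.7 CPM in luminal libraries, a log2 fold change of 9.16 ± 0.29 (adjusted p = 2.46e-12). Neither gene overlapped between the layers. Cacna1h, another T-type subunit, rose by 7.08 on the log2 scale at a low mean level of 1.35 ± 1.18 CPM (SD, n = 8) in basal cells and 0.0228 ± 0.0513 CPM (n = 16) in luminal cells. Cacng7, an auxiliary subunit that also regulates AMPA receptors, had no count in any luminal library and was at least 418-fold higher in basal cells, with the floor of 3 counts set over all luminal libraries. Over all tissues, Cacna2d3 and Cacnb3 were the calcium channel genes called lower in basal cells. Within ducts alone Cacna2d3 changed by -0.94 and Cacnb3 by -0.14 on the log2 scale, and neither was called. Cacna1f was called lower there (adjusted p = 0.0368), with no count in basal duct libraries and a mean of 0.149 CPM in luminal duct libraries.

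The potassium channel genes Kcnq5 and Kcnmb1 had the largest log2 fold changes of the genes named for this comparison. Kcnmb1, the beta subunit that tunes the large-conductance calcium-activated channel in smooth muscle, had 10.5, 40.0 and 86.6 CPM (lowest, median, highest) in basal libraries and 0, 0 and 0.122 CPM in luminal libraries, a log2 fold change of 11.05 ± 0.24 (adjusted p = 1.93e-14). Its pore partner Kcnma1 was higher in basal cells by 4.81 ± 0.38 (adjusted p = 1.04e-08). Kcnq5, a slow non-inactivating potassium channel, had 11, 40.4 and 72.5 CPM in basal libraries and 0, 0 and 0.27 CPM in luminal libraries, a log2 fold change of 11.68 ± 0.35. Kcnip3, a calcium-binding partner of A-type channels, rose by 6.34 ± 0.28 (adjusted p = 2.11e-11). For Kcnmb4, higher at 2.73 ± 1.44 CPM in basal and 0.0152 ± 0.0488 CPM in luminal cells, 20.8% and 10.7% of the exon bases lie under 2 antisense genes, and the libraries did not mark strand. Kcne1l, an accessory subunit gene, was higher by 7.59 on the log2 scale.

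Sodium, glutamate receptor and TRP genes extended the basal set. Scn7a had 7.04, 462.8 and 1544.2 CPM in basal libraries and 0.0323, 0.379 and 1.13 CPM in luminal libraries, a log2 fold change of 8.68 ± 0.32 (adjusted p = 7.75e-12). Trpm3, a heat- and steroid-activated cation channel, had 32.8, 106.2 and 170.1 CPM in basal libraries and 0.0317, 0.218 and 1.91 CPM in luminal libraries, a log2 fold change of 8.38 ± 0.26. Neither gene overlapped between the layers. Gria3, an AMPA receptor subunit, was higher by 7.37 ± 0.28 and Scn4b, a sodium channel beta subunit, by 7.32 ± 0.70 at 3.21 ± 2.72 CPM in basal and 0.0496 ± 0.113 CPM in luminal cells. Of the vanilloid TRP genes, the osmotically and mechanically sensitive Trpv4 rose by 5.03 ± 0.21, Trpv2 by 3.72 ± 0.37, the calcium-selective Trpv6 by 3.62 ± 0.19 and Trpv3 by 1.80 ± 0.43. Trpv3 was called in the PR-cre model (adjusted p = 0.00023) and not in the Elf5 model (adjusted p = 0.7). Trpv1, the capsaicin receptor, had at most 0.82 CPM in any library and a log2 fold change of 0.30 ± 0.46 (adjusted p = 0.613), and Trpv5 was not tested.

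The genes lower in basal than in luminal cells included all 3 epithelial sodium channel subunits. Scnn1a, the alpha subunit, had a lowest, median and highest level of 1.66, 4.08 and 7.86 CPM in basal libraries and 9.92, 95.9 and 223.5 CPM in luminal libraries, a log2 fold change of -4.19 ± 0.13 (adjusted p = 6.04e-14). Scnn1b was lower in basal cells by -4.65 ± 0.17 on the log2 scale and Scnn1g by -0.78 ± 0.24 (adjusted p = 0.00887). All 3 were called lower within ducts, Scnn1g by -1.89 ± 0.35 (adjusted p = 0.000193). Within TEBs 2 were called lower, and Scnn1g was not called. Kcnj11, the pore of ATP-sensitive potassium channels, was nearly absent from basal libraries at 0.0121 ± 0.0344 CPM, against 6.36 ± 6.46 CPM in luminal libraries. Kcnk16, an alkaline-activated tandem-pore potassium channel, had no count in basal cells and was at least 275-fold lower there, a call lost without the first YFP- duct library (log2 fold change -7.78). Trpc6, a diacylglycerol-activated cation channel, had 0.466 ± 0.474 CPM in basal cells and 65.7 ± 61.9 CPM in luminal cells (log2 fold change -6.43 ± 0.32). Kcnq1, Kcne3, Kcns3, Kcnh2, Clca1 and Kcnn4 were lower in basal cells too, by between -8.67 and -3.88 on the log2 scale. Kcne2 was called lower at an adjusted p of 0.0111, but the call was lost on leaving out the first GFP+ duct, GFP- duct, YFP- duct or YFP- TEB library, with log2 fold changes from -5.96 to -4.89.

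Within TEBs alone, 54 genes were higher in basal cells and 27 lower (30.8% and 28% of all genes). Within ducts alone, 71 were higher and 27 lower (33.5% and 29.8%). The contrast averages groups on the log2 scale, so 9 of the 141 genes with no count in some group gave no usable estimate.

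**Figure D2:**
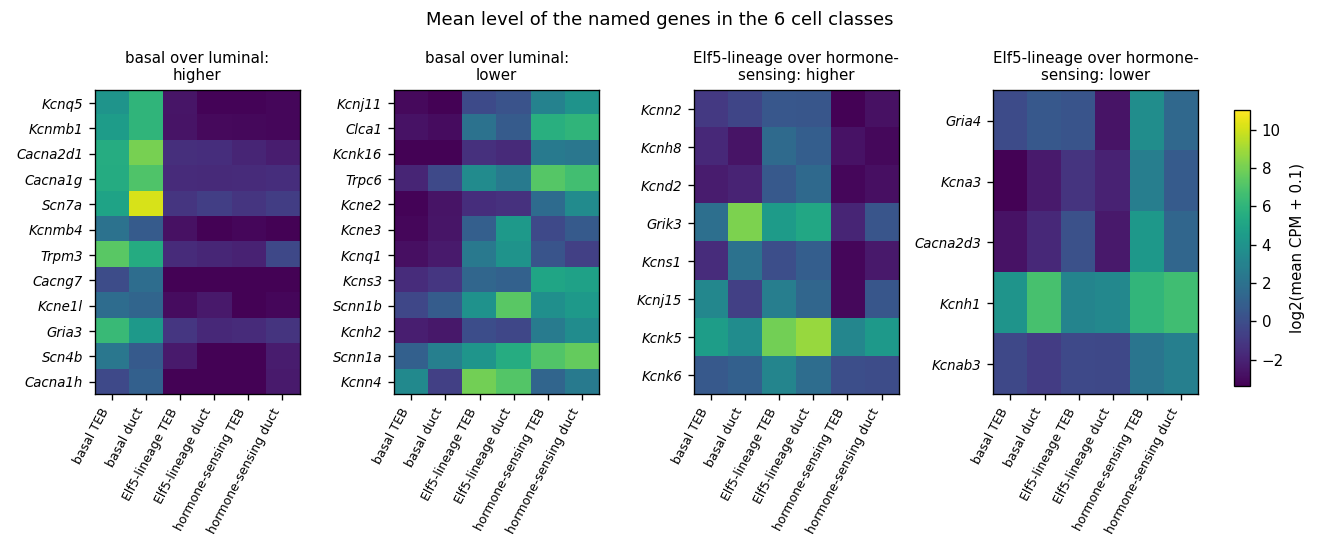
Each row is a gene named for the layer or the lineage comparison and each column one of the 6 cell classes (mean of 4 libraries); colour gives log2(mean CPM + 0.1). The first panel shows genes such as Cacna2d1 and Scn7a with high levels in basal cells and levels near the bottom of the scale in luminal cells, and the right panels hold genes higher or lower in Elf5-lineage than in hormone-sensing cells that the left panels do not show already.

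Between the luminal lineages channel genes differed about as often as other genes. Of the 141 genes, 35 were higher in Elf5-lineage than in hormone-sensing cells and 38 were lower, against 29.6% and 27.4% of all genes, so that both shares lay near the background. The median log2 fold change was 0.10 over the 141 genes and 0.04 over all genes. The genes that differed fell on both sides in most classes: among voltage-gated potassium alpha subunits 8 of 26 were higher and 7 lower, and among tandem-pore genes 3 of 8 were higher and 3 lower.

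On the Elf5-lineage side, Kcnn4 and Kcnk5 combined high levels with large differences. Kcnn4, the intermediate-conductance calcium-activated potassium channel of secretory epithelia, had 277.4 and 286.3 CPM in GFP+ TEB libraries, 196.1 and 159.2 in GFP+ duct, 218.8 and 180.8 in YFP- TEB and 106.8 and 98.9 in YFP- duct libraries. All 8 hormone-sensing libraries lay between 1.03 and 8.30 CPM. The log2 fold change was 5.67 ± 0.39 (adjusted p = 2.04e-08). Kcnk5, an alkaline-sensitive tandem-pore channel of salt-transporting epithelia, had a lowest, median and highest level of 213.0, 327.2 and 485.6 CPM in Elf5-lineage libraries and 5.69, 11.5 and 41.4 CPM in hormone-sensing libraries, without overlap, and rose by 4.62 ± 0.19 (adjusted p = 3.55e-11). Kcnq1, which pairs with Kcne subunits in epithelia, had 4.78, 8.87 and 19.6 CPM in Elf5-lineage libraries and 0.252, 0.44 and 2.93 CPM in hormone-sensing libraries, a log2 fold change of 3.96 ± 0.41. Its partner Kcne3 was higher by 1.91 ± 0.40 (adjusted p = 0.000669), and this rested on YFP- duct cells, which had 42.3 and 35.2 CPM, against 0.252 to 3.07 CPM in the other 14 luminal libraries.

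Other genes of the Elf5 lineage were less abundant or shared with basal cells. Grik3, a kainate receptor subunit, had 3.93, 32.8 and 50.7 CPM in Elf5-lineage libraries and 0.0922, 0.24 and 1.99 CPM in hormone-sensing libraries, again without overlap (log2 fold change 5.64 ± 0.35). Kcnn2, Kcnh8, Kcnd2 and Kcns1 were higher by 5.50 to 7.33 on the log2 scale at means of 1.29 to 2.33 CPM in Elf5-lineage cells and 0.0249 to 0.0497 CPM in hormone-sensing cells. The inward rectifier Kcnj15 (4.94 ± 0.57) and the tandem-pore gene Kcnk6 (2.75 ± 0.41) were higher as well.

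Genes lower in Elf5-lineage than in hormone-sensing cells included Trpc6 and several voltage-gated potassium genes. Trpc6 had a lowest, median and highest level of 2.75, 8.57 and 20.2 CPM in Elf5-lineage libraries and 85.2, 130.4 and 154.4 CPM in hormone-sensing libraries, without overlap, and a log2 fold change of -4.03 ± 0.26 (adjusted p = 5.16e-09). Kcns3, a silent subunit that modifies other voltage-gated potassium channels, had 0.259, 2.55 and 3.96 CPM in Elf5-lineage libraries and 19.0, 31.7 and 38.9 CPM in hormone-sensing libraries (-3.99 ± 0.25). Kcnh2, the delayed rectifier known from heart repolarisation, averaged 0.806 ± 0.537 CPM in Elf5-lineage and 9.08 ± 3.55 CPM in hormone-sensing cells (SD, n = 8 each), and its relative Kcnh1 9.24 ± 9.44 CPM in Elf5-lineage and 81.8 ± 50.4 CPM in hormone-sensing cells. Kcnh1 overlapped between the lineages, with at most 28.4 CPM in Elf5-lineage and at least 26.7 CPM in hormone-sensing libraries. Kcnj11 averaged 0.964 ± 0.798 CPM in Elf5-lineage and 11.8 ± 4.70 CPM in hormone-sensing cells. Clca1 averaged 2.79 ± 2.15 CPM in Elf5-lineage and 57.4 ± 29.8 CPM in hormone-sensing cells. Kcnk16 averaged 0.244 ± 0.197 CPM in Elf5-lineage and 5.08 ± 1.56 CPM in hormone-sensing cells. These 3 genes did not overlap between the lineages. Gria4, Cacna2d3, Kcna3 and Kcnab3 were lower in Elf5-lineage cells by between -5.33 and -3.01 on the log2 scale. Kcne2 was called lower too (-5.00 ± 1.23, adjusted p = 0.00414). The first GFP- duct library had 33.5 CPM of it and the second had none, and without the first the log2 fold change was -1.94 and the call was lost.

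The epithelial sodium channel subunits split between the lineages. Scnn1a averaged 31.7 ± 18.7 CPM in Elf5-lineage and 164.9 ± 32.8 CPM in hormone-sensing cells and was lower in the Elf5 lineage by -2.56 ± 0.13 on the log2 scale (adjusted p = 4.59e-11). Scnn1b averaged 88.7 ± 96.8 CPM in Elf5-lineage and 16.7 ± 4.75 CPM in hormone-sensing cells and was higher by 1.43 ± 0.15 (adjusted p = 3.13e-07). Scnn1g was higher by 2.06 ± 0.28 (adjusted p = 6.55e-06). The difference of Scnn1b came from ducts. Within TEBs it averaged 15.1 ± 8.27 CPM in Elf5-lineage and 13.6 ± 3.40 CPM in hormone-sensing cells (SD, n = 4 each) and was not called (log2 fold change -0.02 ± 0.20, adjusted p = 0.976). Within ducts it averaged 162.3 ± 85.6 CPM in Elf5-lineage and 19.7 ± 4.0 CPM in hormone-sensing cells (2.88 ± 0.21, adjusted p = 1.49e-08). Scnn1g was called higher within TEBs (1.12 ± 0.39, adjusted p = 0.028) and within ducts (3.01 ± 0.40, adjusted p = 7.94e-06), and Scnn1a lower within both (-3.04 ± 0.18 in TEBs, -2.08 ± 0.17 in ducts). Calls of the lineage comparison were 30 higher and 31 lower within TEBs (24.6% and 23.0% of all genes) and 27 higher and 35 lower within ducts (24.6% and 23.3%).

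In basal cells, more channel genes were lower than higher in TEBs than in ducts. Of the 141 genes 44 were lower, 11 higher and 86 not called, against 22.8% and 20.9% of all genes, and the median log2 fold change was -0.81 over the 141 genes and -0.04 over all genes. The lower genes included voltage-gated calcium genes (5 of 8 alpha1 subunits and 5 of 10 auxiliary subunits lower, none higher), voltage-gated potassium alpha subunits (8 of 26 lower, 1 higher) and ionotropic glutamate receptors (5 of 11 lower, 1 higher). Of the 55 called genes, 41 (74.5%) did not overlap between the 4 TEB and the 4 duct libraries, close to the 75.8% of all called genes. Called genes without overlap made up 29.1% of the 141 genes and 33.1% of all genes tested. The basal marker list, given above, was lower in sum in TEBs as well, with 6 of its 10 genes called lower and none higher.

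Scn7a and Grik3 showed the steepest falls among abundant genes. Scn7a had 7.04, 15, 28.4 and 72.3 CPM in basal TEB libraries and 853.4, 1544.2, 940.7 and 1112.0 CPM in basal duct libraries, a log2 fold change of -5.56 ± 0.48 (adjusted p = 7.77e-07). Grik3 had 0.773, 0.594, 3.76 and 8.87 CPM in basal TEB libraries and 224.0, 283.8, 313.6 and 337.1 CPM in basal duct libraries (-7.11 ± 0.46, adjusted p = 4.88e-08). Both were far apart, and within the TEBs both were lower in the Elf5 model, whose values come first, than in the PR-cre model. Scn9a, the sodium channel known from pain-sensing neurons, fell to 0, 0, 0.0591 and 0.0972 CPM in TEBs, against 1.89, 2.92, 1.79 and 1.38 CPM in ducts.

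Of the calcium channel genes tested, 5 of 8 alpha1 and 5 of 10 auxiliary subunits fell, and the others were not called. Cacna2d1 had 38.2, 25.8, 57.7 and 62.1 CPM in basal TEB libraries and 243.3, 330.3, 243.1 and 225.7 CPM in basal duct libraries (-2.57 ± 0.27, adjusted p = 3.32e-06). Cacna1c, the L-type pore of smooth and heart muscle, had 2.32, 4.65, 15.2 and 22 CPM in TEBs and 98.4, 98.6, 90.1 and 67.0 CPM in ducts (-3.45 ± 0.72, adjusted p = 0.00143). It was not called within the PR-cre model alone (adjusted p = 0.136). Its relative Cacna1d had 3.49, 5.32, 7.51 and 12.6 CPM in TEBs and 52.1, 62.5, 36.0 and 40.0 CPM in ducts (-2.81 ± 0.29), and the T-type Cacna1g 32.3, 30.0, 48.2 and 65.0 CPM in TEBs and 100.6, 128.3, 147.4 and 143.3 CPM in ducts (-1.62 ± 0.34). Among auxiliary subunits, Cacnb4 fell by 3.13 on the log2 scale, but 16.0% of its exon bases lie under an antisense gene. Cacng7 fell by 3.07, with an overlap between TEBs and ducts and no call within the PR-cre model alone (adjusted p = 0.161).

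Several potassium channel genes fell as well, among them 8 of 26 voltage-gated alpha subunits and 2 of 8 calcium- or sodium-activated genes. Kcnj2, the classical inward rectifier that holds the resting potential, had 2.50, 2.65, 10.7 and 9.04 CPM in basal TEB libraries and 45.8, 67.6, 53.4 and 54.1 CPM in basal duct libraries (-3.45 ± 0.34, adjusted p = 8.64e-07). Kcnma1 had 1.85, 6.51, 2.40 and 4.13 CPM in TEBs and 26.5, 28, 12.8 and 12.6 CPM in ducts (-2.33 ± 0.57), and Kcnmb1 fell by 1.60 ± 0.24. Kcnh1 fell by 2.85 ± 0.31, with 8.21 to 26 CPM in TEBs and 103.0 to 124.0 CPM in ducts. Kcnq5 fell by 2.02 ± 0.33 and Kcns1, a silent subunit, by 3.91 ± 0.78. Kcna6 fell by 5.12 on the log2 scale at 0.224 ± 0.231 CPM in TEBs and 3.93 ± 1.88 CPM in ducts, with 39.6% of its exon bases under an antisense gene. In the Clca family, Clca3a2 had 12.2, 20.8, 55.2 and 95.6 CPM in TEBs and 326.6, 327.3, 773.3 and 830.5 CPM in ducts (-3.86 ± 0.32), and Clca3a1 fell by 3.58 ± 0.42.

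A smaller set was higher in basal cells of TEBs. The summed luminal progenitor-lineage markers, given above, were higher there too, and 3 of the genes that follow, Kcnj15, Kcnn4 and Kcnk5, were also higher in Elf5-lineage than in hormone-sensing cells. The part of those cells in these rises was not tested. Trpm3 had 166.2, 170.1, 160.2 and 152.2 CPM in basal TEB libraries and 60.1, 46.2, 32.8 and 35.0 CPM in basal duct libraries, a log2 fold change of 1.93 ± 0.34 (adjusted p = 0.000327). Gria3 had 102.9, 87.9, 71.3 and 62.4 CPM in TEBs and 23.5, 24.8, 15.8 and 16.3 CPM in ducts (2.02 ± 0.38, adjusted p = 0.000532). The groups of both genes were well separated. Kcnj15, an inward rectifier of kidney and other epithelia, rose to 11.6, 12.3, 7.69 and 6.87 CPM in TEBs, against 0.982, 0.668, 0.0617 and 0.361 CPM in ducts (4.46 ± 0.68). Kcna4, an A-type potassium channel, had 3.52, 4.48, 2.74 and 1.36 CPM in TEBs and 0, 0.152, 0.0309 and 0 CPM in ducts, and no count in any luminal library. Kcnn4 had 22.8, 16.9, 2.21 and 1.04 CPM in TEBs and 1.11, 0.243, 0.370 and 0.361 CPM in ducts. Its groups overlapped, and it was called in the Elf5 model (adjusted p = 0.000603) and not in the PR-cre model (adjusted p = 0.162).

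Kcnk5 rose by 1.04 ± 0.24 in basal cells of TEBs, at 24.8 ± 3.53 CPM in TEBs and 12 ± 2.28 CPM in ducts (SD, n = 4 each), but it was not called in the PR-cre model alone (adjusted p = 0.126). The intracellular chloride and proton exchangers Clcn5 (1.09 ± 0.23), Clcn6 (0.60 ± 0.18) and Clcn3 (0.26 ± 0.06) rose by small amounts, and the call of Clcn6 was lost without the first TEB library of the Elf5 model (0.53). Trpc2 rose by 0.55 ± 0.12, but 97.5% of its exon bases are shared with Xntrpc, so its reads cannot be assigned with certainty. Scn4b rose by 2.24 ± 0.83 (adjusted p = 0.0468), and this call was lost on leaving out any of the 8 basal libraries, with log2 fold changes from 2.04 to 2.66.

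**Figure D3:**
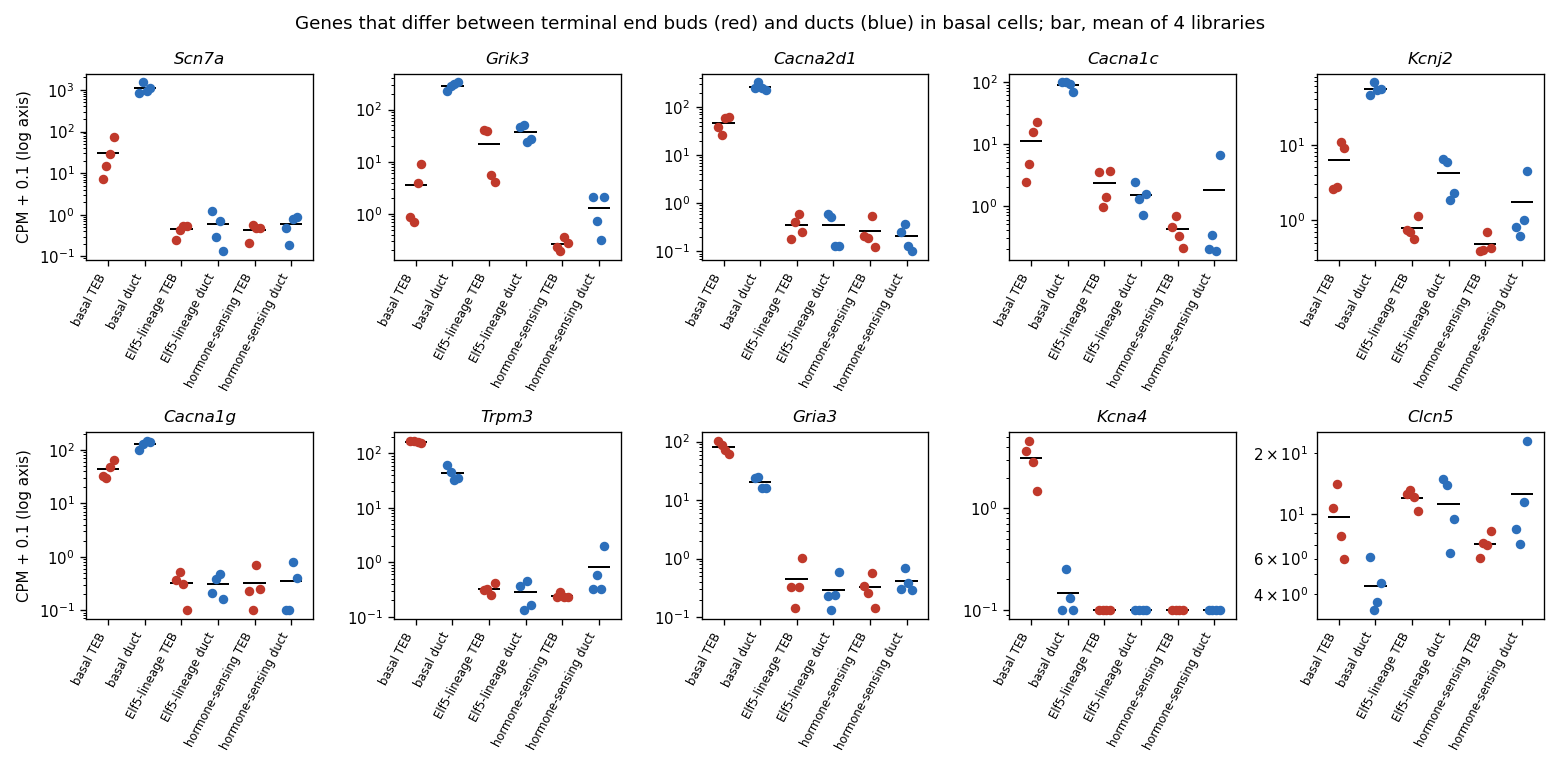
Points are libraries and bars means of 4 libraries for 10 genes, with TEBs in red left of ducts in blue for basal, Elf5-lineage and hormone-sensing cells (CPM + 0.1, log axis). Scn7a, Grik3, Cacna2d1, Cacna1c, Kcnj2 and Cacna1g lie lower in TEBs than in ducts of basal cells, while Trpm3, Gria3 and Kcna4 lie higher.

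In luminal cells fewer channel genes differed between TEBs and ducts: 11 of 141 were higher in TEBs and 23 lower, against 20.0% and 18.6% of all genes, with a median log2 fold change of -0.13 over the 141 genes and 0.00 over all genes. All 3 epithelial sodium channel subunits and 3 of 5 tested Clca genes were lower in TEBs, against 2 and 3 in basal cells. Of the 34 called genes, 2 (Scn8a and Cacnb1) did not overlap between the 8 TEB and the 8 duct libraries, 5.88% of the called members against 7.67% of all called genes. Called genes without overlap were 1.42% of the 141 genes and 2.97% of all genes tested. Within the lineages, 14 genes were higher and 21 lower in TEBs of Elf5-lineage cells (17.4% and 15.2% of all genes), and 5 were higher and 21 lower in TEBs of hormone-sensing cells (13.0% and 11.6%).

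Cacnb1, a calcium channel beta subunit, had a lowest, median and highest level of 2.79, 4.21 and 5.80 CPM in luminal TEB libraries and 8.71, 9.65 and 14.7 CPM in luminal duct libraries (log2 fold change -1.30 ± 0.16, adjusted p = 7.69e-06). Clca3a2 had 132.9, 192.2 and 674.6 CPM in luminal TEB libraries and 587.9, 639.3 and 2202.9 CPM in luminal duct libraries, a fall of 1.85 ± 0.21 on the log2 scale (adjusted p = 1.1e-05), and Clca3a1 fell by 1.65 ± 0.27. All 3 were called lower in TEBs in basal cells as well. Kcnj2 (-2.08 ± 0.28), Grik3 (-2.15 ± 0.37) and Kcnma1 (-3.29 ± 0.60) were also lower in luminal cells of TEBs, at mean levels of 0.528, 11.2 and 0.320 CPM in TEBs and 2.84, 19.0 and 1.42 CPM in ducts. The fall of Kcnma1 was lost without the second YFP- duct library (log2 fold change -2.61).

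The falls of the epithelial sodium channel subunits in TEBs were larger in the Elf5 lineage. In sum, the lineage markers were lower in TEBs too. Those of the luminal progenitor lineage summed to 3623.3 to 4051.4 CPM in TEBs and 7146.4 to 15447.6 CPM in ducts of Elf5-lineage cells. Those of hormone-sensing cells summed to 4012.2 to 5461.0 CPM in TEBs and 5894.9 to 8872.8 CPM in ducts of hormone-sensing cells. Neither pair overlapped. Over all luminal gates 5 of 6 progenitor-lineage markers and none of 6 hormone-sensing markers were called lower, and their part in these falls was not tested. Scnn1b had 21.8 and 22.6 CPM in GFP+ TEB libraries and 245.5 and 226.6 CPM in GFP+ duct libraries, and 7.15 and 8.68 CPM in YFP- TEB libraries and 93.5 and 83.6 CPM in YFP- duct libraries. In hormone-sensing cells it had 15, 8.75, 14 and 16.6 CPM in TEBs and 24.7, 19.0, 15 and 20.3 CPM in ducts. The log2 fold change was -3.45 ± 0.22 in Elf5-lineage cells (adjusted p = 3.19e-08) and -0.54 ± 0.20 in hormone-sensing cells (adjusted p = 0.0655), and the difference between them was -2.91 ± 0.29 (adjusted p = 1.49e-05). Scnn1g fell to 2.72 and 3.21 CPM in GFP+ TEB libraries, against 44.5 and 36.3 CPM in GFP+ duct libraries, and to 1.85 and 3.22 CPM in YFP- TEB libraries, against 18.2 and 21.0 CPM in YFP- duct libraries. Its fall was larger in the Elf5 lineage by -1.89 ± 0.54 on the log2 scale (adjusted p = 0.035), a call lost on leaving out any of 12 luminal libraries (-1.99 to -1.49). Scnn1a fell by 1.43 ± 0.17 in Elf5-lineage cells (adjusted p = 1.48e-05) and by 0.47 ± 0.17 in hormone-sensing cells (adjusted p = 0.0502), a difference of -0.96 ± 0.24 (adjusted p = 0.0162).

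Potassium channel genes also differed between luminal TEBs and ducts. Kcnk5 fell by 0.87 ± 0.23 in Elf5-lineage cells (adjusted p = 0.00993) and by 1.06 ± 0.24 in hormone-sensing cells (adjusted p = 0.00546). Kcnq1 had 5.23, 4.78, 5.51 and 5.17 CPM in Elf5-lineage TEB libraries and 19.6, 12.2, 16.9 and 15.5 CPM in Elf5-lineage duct libraries, a fall of 1.63 ± 0.50 (adjusted p = 0.0194). Kcne3 fell by 2.08 ± 0.55 in Elf5-lineage cells (adjusted p = 0.00848). Its fall was seen in YFP- cells, with 3.07 and 1.93 CPM in TEBs and 42.3 and 35.2 CPM in ducts, and not in GFP+ cells, with 1.16 and 1.18 CPM in TEBs and 1.89 and 0.792 CPM in ducts. Kcnn4 went the other way in mean level, with 240.8 CPM in TEBs and 140.3 CPM in ducts of the Elf5 lineage, but its log2 fold change of 0.81 ± 0.45 was not called (adjusted p = 0.192).

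Other genes were higher in luminal cells of TEBs. Cacna2d3, an auxiliary calcium channel subunit, rose in hormone-sensing cells to 27.5, 25.4, 13.8 and 11.7 CPM in TEBs, against 3.67, 4.52, 0.622 and 0.990 CPM in ducts (3.34 ± 0.61, adjusted p = 0.001), and it rose in Elf5-lineage cells as well (4.11 ± 0.90), at 0.0264 to 1.93 CPM in TEBs and 0 to 0.190 CPM in ducts.

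Kcna3, a voltage-gated potassium channel best known from T cells, rose by 2.77 ± 0.69 in hormone-sensing cells (adjusted p = 0.00994), with 10.8, 9.08, 1.83 and 5.14 CPM in TEBs and 2.35, 3.39, 0.0996 and 0.420 CPM in ducts, which overlapped. Gria4 rose in both lineages, by 5.43 ± 0.68 in Elf5-lineage cells and 1.94 ± 0.37 in hormone-sensing cells. The first rise started near the floor, at 1.18 ± 0.952 CPM in TEBs and 0.062 ± 0.0916 CPM in ducts (SD). Hormone-sensing cells had 12.5 ± 8.92 CPM in TEBs and 2.65 ± 1.2 CPM in ducts. Trpc6 rose by 0.92 ± 0.23 over the luminal gates (adjusted p = 0.0065), at 142.0 to 154.4 CPM in TEBs and 85.2 to 118.9 CPM in ducts of hormone-sensing cells, without overlap. Within the lineages it was called in Elf5-lineage cells (1.27, adjusted p = 0.0112) and not in hormone-sensing cells (0.56 ± 0.32, adjusted p = 0.231). Kcnk6 (1.49 ± 0.41) rose too. Clcn6 rose by 0.34 ± 0.13 (adjusted p = 0.0463), a call lost in 18 of 24 fits that left out a library and without both keratinocyte-bearing libraries (adjusted p = 0.216). Kcnk7, called at an adjusted p of 0.0264, was lost without those libraries (adjusted p = 0.0854) and without the second GFP+ duct, the first YFP- duct or the second YFP- TEB library alone (log2 fold change 1.28 to 1.63). Over all luminal gates the call of Kcna3 was lost without the first YFP- TEB library (1.63).

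**Figure D4:**
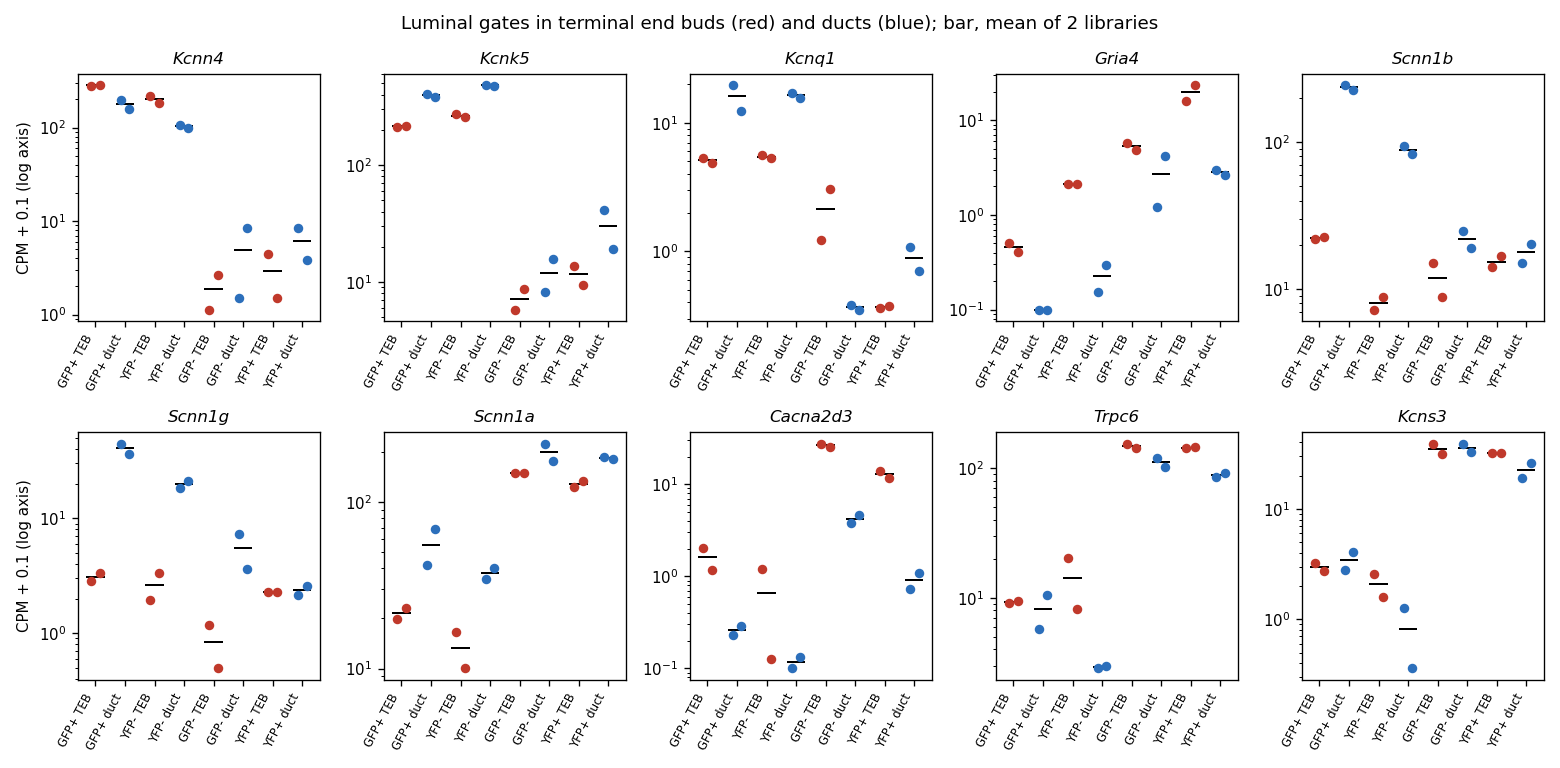
Points are libraries and bars means of 2 libraries for 10 genes in the 4 luminal gates, with TEBs in red left of ducts in blue (CPM + 0.1, log axis). Kcnn4, Kcnk5 and Kcnq1 are high in GFP+ and YFP- cells, Trpc6 and Kcns3 in GFP- and YFP+ cells, and Scnn1b and Scnn1g drop in TEBs of the GFP+ and YFP- gates.

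The TEB over duct change differed between the layers for 36 genes: the log2 fold change was lower in basal than in luminal cells for 28 and higher for 8, against 14.9% and 11.4% of all genes. For 25 of the 141 genes, groups without counts left this difference without a usable estimate. Grik3 and Scn7a fell in basal cells by more than in luminal cells, by -4.96 ± 0.76 (adjusted p = 0.000262) and -5.08 ± 0.74 (adjusted p = 0.000185) on the log2 scale, although Scn7a stayed at or below 1.13 CPM in every luminal library. Kcna3, Cacna2d3, Scn2a and Gria4 had negative differences too, between -7.82 and -5.01. Of these, Kcna3 and Cacna2d3 were already low in basal duct cells, at 0.0975 ± 0.0702 and 0.197 ± 0.155 CPM (SD). Their basal falls thus rest on few reads. The call of Kcna3 was lost without the first basal duct library of the Elf5 model or the first YFP- TEB library (-6.63 to -5.45). That of Scn2a was lost without the first basal TEB library of the Elf5 model, the second of the PR-cre model or the first YFP- TEB library (-5.60 to -4.21). That of Cacna2d3 was lost without the first basal duct library of the Elf5 model (-3.45). The luminal log2 fold changes of Kcna3, Cacna2d3, Scn2a and Gria4 were positive, and that of Scn2a (2.80 ± 1.13, adjusted p = 0.0644) was the one not called.

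In the opposite direction, Kcnk5 rose in basal cells of TEBs and fell in luminal cells of TEBs, a difference of 2.01 ± 0.29 (adjusted p = 0.000151). Kcnn4 (3.71 ± 0.74), Trpm3 (2.85 ± 0.61) and Clcn5 (1.36 ± 0.28) also had positive differences, though Trpm3 stayed at or below 1.91 CPM in every luminal library and its call was lost without the first GFP+ duct or the first YFP- duct library (2.33 to 2.48). Clcn3 differed by 0.49 ± 0.07 (adjusted p = 6.49e-05), with a rise in basal and a fall in luminal cells. Kcnj15 had the highest positive value, 6.44 ± 0.89 (adjusted p = 5.23e-05). Its luminal change combines unlike gates. In Elf5-lineage cells it had 8.06, 7.16, 4.45 and 6.67 CPM in TEBs and 4.09, 2.25, 0.918 and 2.59 CPM in ducts (1.46 ± 0.58, adjusted p = 0.0638), and in hormone-sensing cells 0, 0.0437, 0.022 and 0 CPM in TEBs and 0.280, 4.29, 0.274 and 0.330 CPM in ducts (-5.42 ± 0.99, adjusted p = 0.000959). The value of 4.29 CPM came from the second GFP- duct library, one of the 2 with keratinocyte transcripts. Without those 2 libraries the difference between the layers was 5.77 (adjusted p = 2.81e-06).

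**Figure D5:**
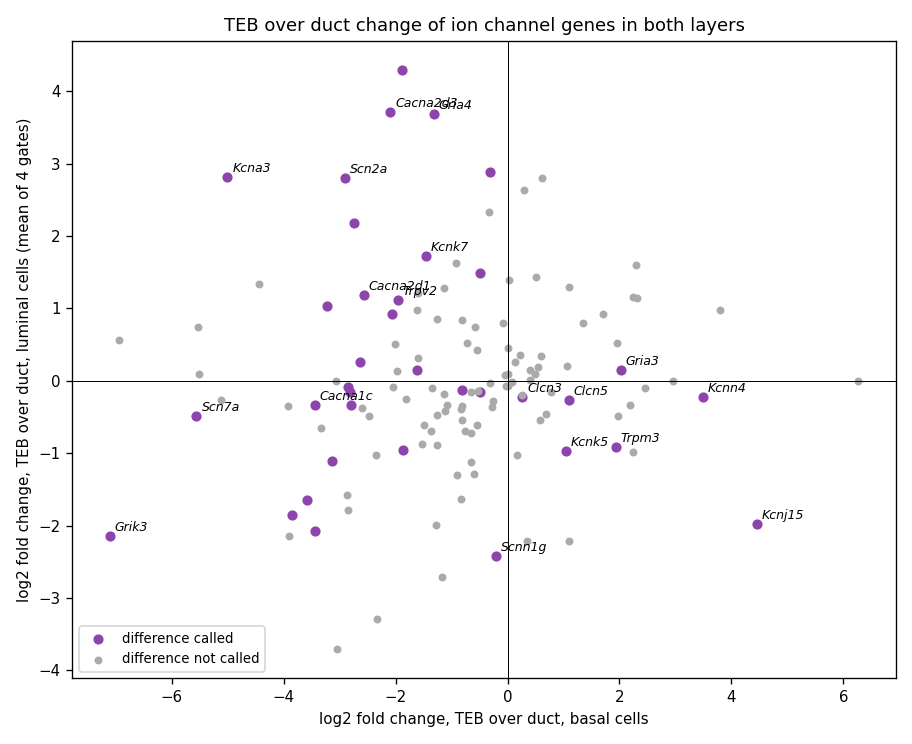
Each of 133 genes is placed by its log2 fold change of TEB over duct in basal cells (x axis) and in luminal cells, averaged over the 4 gates (y axis). Purple points are the 36 genes whose change differed between the layers. Left out are 8 tested genes without a usable estimate within a layer. Grey points are genes whose difference was not called, including some of the 25 without a usable estimate of it. More points lie left of 0 on the x axis than right of it, and Grik3 and Scn7a lie far to the left.

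Between the luminal lineages the TEB over duct change differed for 13 genes, higher in Elf5-lineage than in hormone-sensing cells for 8 and lower for 5 (4.93% and 5.68% of all genes), with 22 genes without a usable estimate. The 3 epithelial sodium channel subunits were among the 5. Trpv6 rose by 1.18 ± 0.34 in Elf5-lineage cells of TEBs and fell by 1.56 ± 0.38 in hormone-sensing cells, a difference of 2.74 ± 0.51 (adjusted p = 0.0031). Its Elf5-lineage change was seen in GFP+ cells, with 9.66 and 8.26 CPM in TEBs and 0.756 and 1.71 CPM in ducts, and not in YFP- cells, with 16.0 and 10.6 CPM in TEBs and 22 and 16.7 CPM in ducts. Trpm6, a magnesium channel, behaved alike, with 39.7 and 52.3 CPM in TEBs and 11.7 and 17.1 CPM in ducts of GFP+ cells, and 60.7 and 62.6 CPM in TEBs and 74.1 and 75.9 CPM in ducts of YFP- cells. With GFP+ and YFP- cells treated as one class, neither difference was called (adjusted p = 0.293 for Trpv6 and 0.485 for Trpm6). Clca2 was called with a log2 difference of 9.14 ± 2.56 (adjusted p = 0.0392), but its values of 26.9 CPM in the second GFP- duct and 13.9 CPM in the second YFP- TEB library came from those with keratinocyte transcripts, and without them its adjusted p was 1.0.

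Of 3 related lists outside the symbol rule, the one on calcium entry, stores and pumps had 26 of 28 genes tested. In basal cells 6 of these (23.1%) were higher and 13 (50%) lower in TEBs than in ducts, against 20.9% and 22.8% of all genes. The sodium-calcium exchanger Slc8a1 had 17.5 ± 5.47 CPM in basal TEB cells and 75.7 ± 14.1 CPM in basal duct cells (-2.15 ± 0.40, adjusted p = 0.000457), while Orai1, the pore of store-operated calcium entry, had 9.46 ± 0.517 CPM in basal TEB and 5.10 ± 0.997 CPM in basal duct cells (0.90 ± 0.15, adjusted p = 0.000149). Against the other layer, Slc8a1 had 46.6 ± 32.6 CPM in basal and 0.125 ± 0.153 CPM in luminal cells. The calcium pump Atp2b1 had 664.2 ± 174.8 CPM in Elf5-lineage and 48.2 ± 19.4 CPM in hormone-sensing cells (3.79 ± 0.19, adjusted p = 3.29e-10). The mechanically gated channels of the same list, picked out after their values were seen, had opposite directions between the lineages. Piezo1 had 250.7 ± 130.5 CPM in Elf5-lineage and 56.3 ± 15.8 CPM in hormone-sensing cells (2.01 ± 0.10, adjusted p = 6.92e-11), and Piezo2 had 61.4 ± 62.6 CPM in Elf5-lineage and 421.1 ± 233.6 CPM in hormone-sensing cells (-3.05 ± 0.28, adjusted p = 3.29e-07). Over the list, 13 genes (50%) were higher and 10 (38.5%) lower in basal than in luminal cells, against 35.5% and 32.2% of all genes. In the Elf5 lineage 8 (30.8%) were higher and 9 (34.6%) lower, against 29.6% and 27.4%. In luminal TEBs 4 (15.4%) were higher and 9 (34.6%) lower, against 20.0% and 18.6%.

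The list of other channels had 46 of 47 genes tested, with 3 (6.52%) higher and 15 (32.6%) lower in basal TEB than basal duct cells, against 20.9% and 22.8% of all genes. In luminal TEB over luminal duct cells 9 (19.6%) were higher and 10 (21.7%) lower, near the 20.0% and 18.6% of all genes. Ano1, a calcium-activated chloride channel, had 473.2 ± 334.9 CPM in luminal TEB and 965.9 ± 418.5 CPM in luminal duct cells (-1.48 ± 0.12, adjusted p = 2.91e-07). Across the layers 16 genes (34.8%) were higher and 19 (41.3%) lower in basal cells, against 35.5% and 32.2% of all genes, and across the lineages 16 (34.8%) were higher and 14 (30.4%) lower in Elf5-lineage cells, against 29.6% and 27.4%. Of the sodium-potassium pump and cation-chloride cotransport list, 20 of 24 genes were tested. In basal TEBs none was higher and 8 (40%) lower (20.9% and 22.8% of all genes), and in luminal TEBs 2 (10%) were higher and 6 (30%) lower (20.0% and 18.6%). In basal over luminal cells 7 (35%) were higher and 9 (45%) lower (35.5% and 32.2%), and in the Elf5 lineage 5 (25%) were higher and 7 (35%) lower (29.6% and 27.4%). Slc12a2, the sodium-potassium-chloride cotransporter, had 559.2 ± 114.0 CPM in Elf5-lineage and 5464.9 ± 3406.6 CPM in hormone-sensing cells (-3.08 ± 0.12, adjusted p = 3.74e-12).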

How the data were processed

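RNA was extracted with the miRNeasy kit and libraries were made with the TruSeq RNA v2 kit, per the labels' protocols. That kit does not mark strand. The authors deposited raw read counts per gene, made with featureCounts on mm10, per the submitters' processing notes; aligner, annotation and strand setting were not given in the sources used here. Symbols came from RefSeq for 25275 of 27179 gene IDs and from GENCODE for 18. The ion channel genes and the gene lists were chosen with earlier results of these data known.

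The 12 groups of 2 libraries were fitted together in edgeR 4.0.16 (R 4.3.3) with TMM scaling and the robust quasi-likelihood test, after a filter on low counts (minimum count 10, minimum total 15), which kept 18109 genes with 12 residual degrees of freedom. Contrasts averaged group means on the log2 scale. P-values were Benjamini-Hochberg adjusted over all genes tested and called at 0.05, and every adjusted p in the text is from this test unless another is named. Levels are CPM on TMM-scaled library sizes. Errors of fold changes, given as SE, were worked back from each fold change and its test result, not estimated directly in the fit. Where some groups had no count, as for Kcnmb1 and Kcnq5 between the layers, they may misstate the precision of the fold change. Whether both libraries of each group stem from different mice is not stated. The p-values then measure only library-to-library spread, which may be technical. A count of 3 was the floor for genes at 0, and counting intervals and floors cover counting error only. Genes were named if they had one of the 12 strongest called changes in a direction, a mean of at least 1 CPM on a side and the same direction in both models, or were the most abundant of a class, or belonged to the Scnn1, Clca or Trpv families. A few genes that this rule names are not reported here. Alternatives were RLE scaling, other filters, 6 cell classes, each model alone, a replicate block, limma 3.58.1 (voom), DESeq2 1.42.0 and leaving out libraries. The fit was also run on simulated counts that gave every gene the same spread and no group differences beyond those added. That run does not cover genes without counts in some groups. Figures were drawn in Python 3.11.15 with matplotlib 3.10.9.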

Additional observations from a re-analysis of the deposited data

Results flagged for a closer look

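The change of TEB over duct differed between basal and luminal cells for 8 genes in the higher and 28 in the lower direction, by a test of the difference itself with edgeR. On the log2 scale named differences of basal minus luminal change were 6.44 for Kcnj15, 3.71 for Kcnn4, 2.85 for Trpm3, 2.22 for Scnn1g, 2.01 for Kcnk5, 1.88 for Gria3, 1.36 for Clcn5 and 0.49 for Clcn3. In the other direction they were -7.82 for Kcna3, -5.83 for Cacna2d3, -5.69 for Scn2a, -5.08 for Scn7a and -5.01 for Gria4. Further values were -4.96 for Grik3, -3.76 for Cacna2d1, -3.17 for Kcnk7, -3.11 for Cacna1c and -3.07 for Trpv2. Kcna3 and Cacna2d3 had means of only 0.0975 and 0.197 CPM in basal duct cells. The call of Cacna1c was lost in 14 fits that left out a library (-3.22 to -2.78) and that of Gria3 in 16 (1.57 to 2.01). Single omissions moved Cacna2d3 to -3.45 (without the first basal duct library of the Elf5 model) and Trpv2 to -1.42 (without the first YFP- TEB library), and neither was then called. Calls were also lost for Scn2a in 3 fits (-5.60 to -4.21), Kcna3 in 2 (-6.63 to -5.45) and Trpm3 in 2 (2.33 to 2.48). That of Kcnk7 was lost in 3 (-3.09 to -2.63), without the first duct or second TEB basal library of the Elf5 model or the first basal TEB library of the PR-cre model.

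The same change differed between Elf5-lineage and hormone-sensing cells for 8 genes in the higher and 5 in the lower direction. The differences were 9.14 for Clca2, 6.88 for Kcnj15, 3.49 for Gria4, 2.87 for Kcnip3, 2.74 for Trpv6 and 2.28 for Kcnh2. They were 1.10 for Trpm6 and 0.76 for Trpc2. Negative ones were -2.91 for Scnn1b, -2.05 for Grin2d, -1.89 for Scnn1g, -0.96 for Scnn1a and -0.45 for Trpm4. Gria4 had a mean of only 0.062 CPM in Elf5-lineage duct cells. Leaving out single libraries ended the call of Clca2 in 21 fits (3.07 to 10.84), Kcnip3 in 20 (2.17 to 3.08), Kcnh2 in 16 (2.05 to 2.56), Scnn1g in 12 (-1.99 to -1.49), Grin2d in 10 (-2.15 to -1.81), Trpm4 in 9 (-0.46 to -0.37) and Gria4 in 1 (3.45, without the first GFP+ duct library).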

How the results depend on the processing

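No named result of 125 reversed under any alternative, and 76 stayed called in all of them. Calls were lost for 3 with RLE scaling, 5 without a filter, 2 with a filter of 1 CPM, 14 with 6 cell classes, 28 in the Elf5 model alone, 34 in the PR-cre model alone, 6 with the replicate block, 5 with limma voom, 4 with DESeq2 and 5 without the 2 keratinocyte-bearing libraries. In the PR-cre model alone 25 genes were lower in basal TEBs, and in the Elf5 model alone 4 were higher in luminal TEBs. The difference between layers gave 3 higher in the PR-cre model alone, and 16 (Elf5 model alone) and 12 (PR-cre model alone) lower. The difference between lineages gave 3 higher and 2 lower with 6 classes, 5 and 3 in the Elf5 model alone, 0 and 1 in the PR-cre model alone, and 16 higher with DESeq2. The cause was not tested, though each model alone holds fewer samples.

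Leaving out 1 library at a time gave 64 to 71 higher and 25 to 29 lower genes between layers, 32 to 38 and 35 to 41 between lineages, 9 to 12 and 34 to 46 in basal TEBs, 8 to 14 and 20 to 23 in luminal TEBs, 6 to 9 and 21 to 31 for the layer difference, and 4 to 15 and 2 to 6 for the lineage difference. A lone library was assumed to vary like the other groups.

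Libraries of a model carry the same replicate numbers across gates and tissues. Deviations of same-numbered libraries correlated weakly, at 0.01 to 0.15 in the Elf5 model and 0.00 to 0.10 in the PR-cre model. Weak correlation cannot show that same-numbered libraries had separate sources, so whether they are paired is not known. With the replicate block, 71 and 28 genes were called higher and lower between layers, 33 and 38 between lineages, 10 and 43 in basal TEBs, 10 and 21 in luminal TEBs, 8 and 29 for the layer difference and 6 and 4 for the lineage difference.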

Other observations

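Cacna1a, a P/Q-type calcium channel pore, was the 1 gene of the 141 tested whose libraries did not overlap by mouse model, a pattern seen after the values were known. Its lowest, median and highest levels were 7.17, 9.345 and 15.1 CPM in the 12 PR-cre libraries and 0.756, 2.05 and 4.62 CPM in the 12 Elf5 libraries. Of all 27179 genes, 104 (0.383%) did not overlap by model, a share that also counts genes too low to be tested.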
